A study of Mus musculus with 15 samples.

Results

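The genes described here mark successive steps of bone formation. They are 9 of the 56832 genes in the count table, and they were measured in cultured mesenchymal stromal cells (MSCs) of mouse bone marrow. They were taken by symbol and fall into 3 regulators of the osteoblast lineage (*Runx2*, *Sp7* and *Dlx5*), 3 genes of the early bone matrix (*Alpl*, *Ibsp* and *Spp1*) and 3 genes of the late osteoblast and osteocyte (*Bglap*, *Phex* and *Dmp1*). Bulk RNA-sequencing gave 15 libraries: under the male label there were 4 of TauT+/+ and 4 of TauT-/- MSCs, and under the female label 3 and 4. TauT, encoded by *Slc6a6*, is the transporter that carries taurine into cells, and the TauT-/- mice lack it in every tissue. Mice were 16 weeks old and of C57BL/6J background, and the labels give 1 protocol for both genotypes: marrow cells grew in medium without ascorbic acid, no osteogenic inducer is named for these cultures, and CD45- cells were taken by magnetic sorting. The methods name magnetic depletion of cells with CD45, Ter119 or CD31, or else flow sorting, and do not say which was used for each library. Nothing in the labels says which libraries came from separate animals, so p-values measure only the spread between these samples.

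Osteoblasts arise from MSCs in an ordered program. *Runx2*, a Runt-family transcription factor, is required for commitment to the lineage, and *Sp7* (osterix), a zinc-finger factor, acts after it, while *Dlx5* is a homeobox factor that answers to bone morphogenetic proteins. Committed cells lay down collagen and make *Alpl*, the tissue-nonspecific alkaline phosphatase that frees phosphate for mineral, then the matrix proteins bone sialoprotein (*Ibsp*), osteopontin (*Spp1*) and osteocalcin (*Bglap*). Osteocytes, the cells buried in the finished matrix, make *Phex*, an endopeptidase of phosphate balance, and *Dmp1*, a matrix protein that limits the phosphate hormone FGF23. Osteopontin is also a well-known product of macrophages and osteoclasts.

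Counts were scaled to CPM, counts set to a common library size after TMM normalization, and tested by edgeR's quasi-likelihood method with the sex label and the genotype as terms, with p adjusted over all genes by the Benjamini-Hochberg method. Of the 56832 genes, 17204 passed the filter on low counts. The filter kept 7 of the 9 genes, all but *Bglap* and *Dmp1*.

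Some features of the libraries touch every value below. Male-labelled libraries held 69764291 to 101575071 counts and female-labelled ones 12761107 to 20781070, so 3 counts, the most that a count of 0 allows, correspond to 0.0305 to 0.0437 CPM and to 0.138 to 0.229 CPM. Depth and sex label cannot be told apart, while both genotypes occur at each depth. Library TauT+/+ male 1 was nearly identical to TauT+/+ female 1, as was TauT-/- male 1 to TauT-/- female 1, with a spread of the log2 ratio per gene of 0.128 and 0.116 against 0.289 for the next closest pair, TauT+/+ male 3 and TauT-/- male 3, and 0.0707 and 0.0676 for counting error. Sex-linked genes went against the sex label in 3 libraries, those labelled TauT+/+ male 1, TauT-/- male 1 and TauT+/+ female 3. *Slc6a6* RNA ranged from 592 to 2591 CPM in the libraries labelled TauT+/+ and from 401 to 1521 CPM in those labelled TauT-/- (log2 fold change -0.97, SE 0.36, adjusted p = 0.125), so this gene does not separate the labels. The exons removed by the deletion are not given in the sources used here. *Pdgfra*, which defines stromal cells, was present in every library, and so was *Ptprc*, which encodes CD45, at 27.9 to 179 CPM in TauT+/+ and 114 to 370 CPM in TauT-/- libraries. In bulk RNA, fewer cells of a type and less RNA per cell cannot be told apart.

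In these cultures 1 gene, *Spp1*, was among the most counted genes of all, and its fitted level in TauT-/- MSCs was 2.56 times that in TauT+/+ MSCs (95% interval of the log2 difference 0.42 to 2.29), while the fitted levels of the other 6 tested genes were below those in TauT+/+ MSCs. The lower levels ranged from a log2 difference of -0.24 for *Ibsp* to -1.0 for *Sp7*. By edgeR, 0 of the 7 genes were called lower, beside 0.75% of all genes tested, and 0 were called higher, beside 0.546%. Without adjustment 2 genes, *Runx2* and *Spp1*, had a p under 0.05, beside 23.6% of all genes. DESeq2 and limma's voom with sample quality weights each called *Spp1* higher and no other of the genes, and over all genes they called 5.53% and 3.55% higher and 6.5% and 4.12% lower. The median log2 fold change of the 7 genes was -0.43, beside -0.015 over all genes tested. For each of the 9 genes the values of the genotypes overlapped, and 1.13% of all tested genes had no overlap.

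Promoter sequence is shown for genes on which the results turn, *Sp7* and *Dlx5*, whose levels moved together, *Spp1*, which differed most in amount, and *Bglap* with its near copy *Bglap2*. The stretches are the 250 bases upstream of the annotated canonical start in GRCm39, written from 5′ to 3′ along the gene. For *Bglap* the 31 bases covered by an exon of the gene are left out, which leaves 219 bases. The stretches are chr15:102275706-102275955 (minus strand) for *Sp7*, chr6:6882093-6882342 (minus strand) for *Dlx5*, chr5:104581915-104582164 (plus strand) for *Spp1*, chr3:88291772-88291990 (minus strand) for *Bglap* and chr3:88286061-88286310 (minus strand) for *Bglap2*. Capitals mark the longest run of one repeated pair of bases in *Sp7* and *Dlx5*, and a RUNX core or a TATA box in *Bglap* and *Bglap2*. The *Spp1* stretch holds neither and has no capitals.
Sp7: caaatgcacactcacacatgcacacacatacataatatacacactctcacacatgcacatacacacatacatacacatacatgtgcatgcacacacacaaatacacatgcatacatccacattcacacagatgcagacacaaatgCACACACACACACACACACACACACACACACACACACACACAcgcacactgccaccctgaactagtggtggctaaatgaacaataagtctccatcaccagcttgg
Dlx5: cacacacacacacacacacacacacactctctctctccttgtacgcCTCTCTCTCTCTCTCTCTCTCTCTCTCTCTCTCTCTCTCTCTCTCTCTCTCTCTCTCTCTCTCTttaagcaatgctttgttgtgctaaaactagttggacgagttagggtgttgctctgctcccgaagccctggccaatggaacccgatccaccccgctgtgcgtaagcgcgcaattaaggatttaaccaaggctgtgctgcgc
Spp1: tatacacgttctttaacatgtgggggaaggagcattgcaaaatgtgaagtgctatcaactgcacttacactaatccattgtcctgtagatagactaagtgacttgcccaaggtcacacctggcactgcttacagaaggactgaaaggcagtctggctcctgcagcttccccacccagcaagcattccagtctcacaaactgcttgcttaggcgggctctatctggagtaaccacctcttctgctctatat
Bglap: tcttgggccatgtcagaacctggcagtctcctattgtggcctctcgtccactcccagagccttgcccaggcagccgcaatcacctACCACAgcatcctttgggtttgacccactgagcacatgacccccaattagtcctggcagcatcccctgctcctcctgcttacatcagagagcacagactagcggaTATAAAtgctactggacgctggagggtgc
Bglap2: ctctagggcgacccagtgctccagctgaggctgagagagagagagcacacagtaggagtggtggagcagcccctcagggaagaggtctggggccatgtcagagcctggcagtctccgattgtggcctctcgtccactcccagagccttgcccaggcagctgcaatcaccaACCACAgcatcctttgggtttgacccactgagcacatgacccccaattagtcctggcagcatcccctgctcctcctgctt

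The repeat in the *Sp7* stretch holds 21 copies of CA and that in *Dlx5* holds 32 copies of CT. A run of at least 10 copies of one pair of bases occurred in 1.92% of 21751 promoters of protein-coding genes and in 2 of the 9 genes, these 2. It was looked for after the sequences had been seen. Other letter strings were also searched on both strands of the 250 bases.
The RUNX core ACCACA was found in 2 of the 9 windows, those of *Bglap* and *Dmp1*, and in 13% of all promoters. In *Bglap* it began 134 bases upstream of the exon edge and in *Bglap2* 80 bases upstream of the canonical start, with the same letters after it. The TATA box TATAAA was found in *Bglap* alone among the 9, 29 bases upstream of the exon edge, and in 11.9% of all promoters. The GC box GGGCGG was found in *Runx2* alone and in 36.3% of promoters, while the homeodomain core TAATTA (5.19% of promoters) and the TCF/LEF core CTTTGA (14.1%) were found in 0 of the 9. No match says only that these letters are not in this window.

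**Figure D1:**
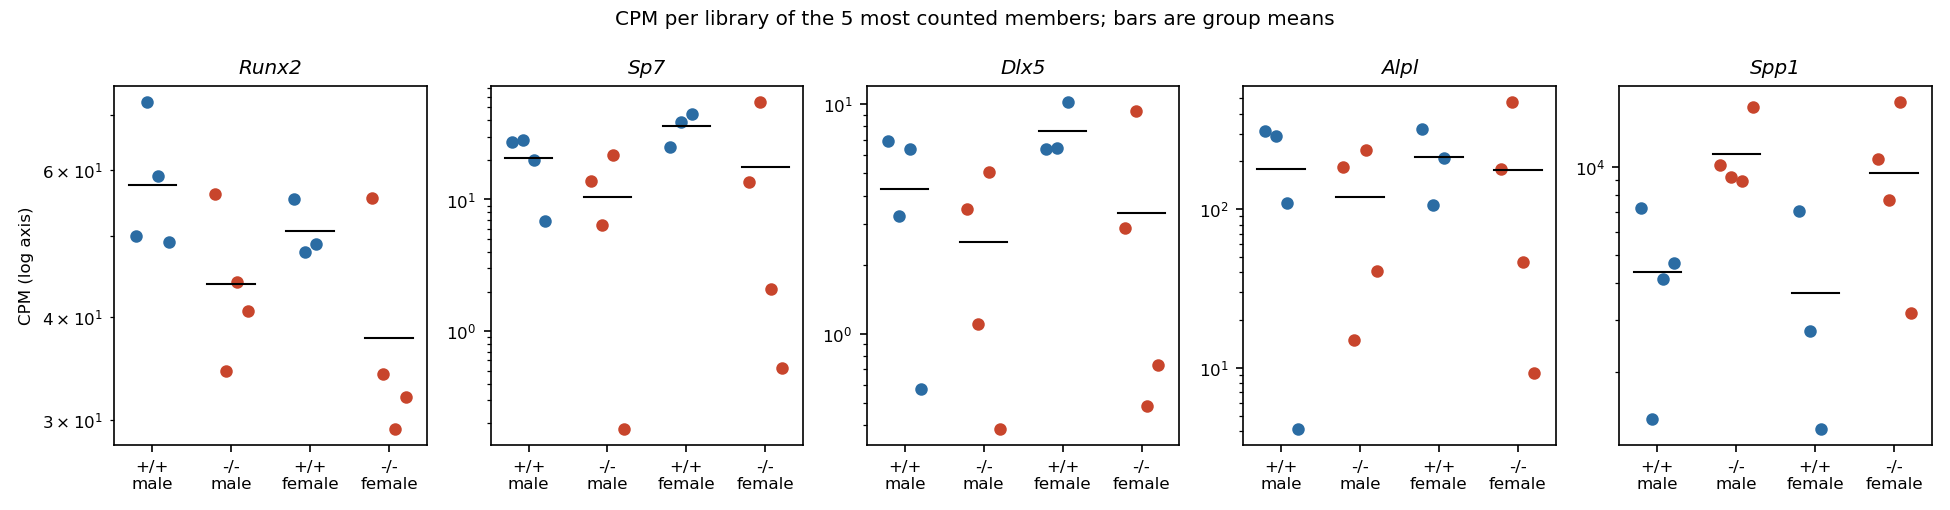
CPM (log axis) of *Runx2*, *Sp7*, *Dlx5*, *Alpl* and *Spp1* in each library, by genotype and sex label. Points are libraries, blue for TauT+/+ and red for TauT-/-, and bars are group means. In *Runx2* the 2 red points among the blue ones are the libraries numbered 1 at 56.2 and 55.5 CPM, and in *Spp1* the single red point among the blue ones is TauT-/- female 4 at 3180 CPM.

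*Runx2* lies on the minus strand of chr17:44806874-45125684. TauT+/+ male libraries 1 to 4 had 50.0, 72.4, 59.0 and 49.2 CPM, and TauT+/+ female libraries 1 to 3 had 55.3, 47.9 and 48.9 CPM. TauT-/- male libraries 1 to 4 had 56.2, 34.4, 44.0 and 40.7 CPM, and TauT-/- female libraries 1 to 4 had 55.5, 34.1, 29.3 and 32.0 CPM. Of the 8 TauT-/- libraries 6 were therefore below every TauT+/+ library, and the exceptions were male 1 and female 1, the nearly identical pair. The means were 54.7 ± 8.80 (SD, n = 7 libraries) and 40.8 ± 10.4 CPM (SD, n = 8 libraries). The log2 fold change was -0.41 (SE 0.15, 95% interval -0.73 to -0.091), with an edgeR p of 0.0153 and an adjusted p of 0.122. With only 1 library kept of each near-identical pair it was -0.52 or -0.45, depending on which was kept, with edgeR adjusted p = 0.103 and 0.117. The difference had a like size under both sex labels, -0.40 (SE 0.21) in male-labelled and -0.43 (SE 0.23) in female-labelled libraries. Each label holds a library of both near-identical pairs, so these estimates are not independent. *Runx2* was the steadiest of the 7 tested genes: its highest level was 2.47 times its lowest, and its biological coefficient of variation of 0.23 stood at the 26.6th percentile of all genes, whose median was 0.345.

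*Sp7* lies on the minus strand of chr15:102265038-102279370 and had the widest range of any gene of the set that was detected in every library. TauT+/+ male libraries 1 to 4 had 27.2, 28.4, 19.9 and 6.86 CPM, and TauT+/+ female libraries 1 to 3 had 25.2, 38.9 and 44.8 CPM. TauT-/- male libraries 1 to 4 had 13.8, 6.40, 21.7 and 0.182 CPM, and TauT-/- female libraries 1 to 4 had 13.6, 54.7, 2.08 and 0.521 CPM. The TauT-/- group thus held both the highest value, in female 2, and the lowest, in male 4, a 300.4-fold range. Of its 8 libraries 4 were below every TauT+/+ library and 1 was above. The means were 27.3 ± 12.4 and 14.1 ± 18.1 CPM (SD, n = 7 and 8 libraries). The log2 fold change was -1.0 (SE 0.81, 95% interval -2.74 to 0.75, edgeR adjusted p = 0.480). Its coefficient of variation of 1.02 stood at the 94.9th percentile of all genes. Leaving out any 1 library gave log2 fold changes from -1.71 to -0.79. The first was without TauT-/- female 2 (edgeR adjusted p = 0.227) and the last without TauT-/- male 4 (edgeR adjusted p = 0.535).

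*Dlx5*, on the minus strand of chr6:6877804-6882092, ordered the libraries in much the same way as *Sp7*. TauT+/+ male libraries 1 to 4 had 6.90, 3.26, 6.41 and 0.578 CPM, and TauT+/+ female libraries 1 to 3 had 6.38, 6.43 and 10.2 CPM. TauT-/- male libraries 1 to 4 had 3.48, 1.10, 5.05 and 0.387 CPM, and TauT-/- female libraries 1 to 4 had 2.88, 9.36, 0.486 and 0.730 CPM. The lowest library of each genotype under the male label, number 4, was also the lowest for *Sp7*, and TauT-/- female 2 was again the highest of the TauT-/- libraries. The means were 5.73 ± 3.03 and 2.93 ± 3.09 CPM (SD, n = 7 and 8 libraries). The log2 fold change was -0.96 (SE 0.67, 95% interval -2.39 to 0.46, edgeR adjusted p = 0.397), within the spread between libraries. Leaving out any 1 library gave -1.47 to -0.78. The first was without TauT-/- female 2 (edgeR adjusted p = 0.207) and the last without TauT-/- male 4 (edgeR adjusted p = 0.5).

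*Alpl*, on the minus strand of chr4:137469039-137524102, varied 114-fold between libraries. TauT+/+ male libraries 1 to 4 had 311, 289, 109 and 4.13 CPM, and TauT+/+ female libraries 1 to 3 had 320, 106 and 211 CPM. TauT-/- male libraries 1 to 4 had 186, 14.9, 236 and 41.0 CPM, and TauT-/- female libraries 1 to 4 had 180, 472, 46.5 and 9.23 CPM. The lowest value of all was in a TauT+/+ library, male 4, and the highest in a TauT-/- library, female 2. The means were 193 ± 122 and 148 ± 158 CPM (SD, n = 7 and 8 libraries), and the log2 fold change was -0.43 (SE 0.83, 95% interval -2.21 to 1.34, edgeR adjusted p = 0.785). This interval holds changes of either sign of more than 1 on the log2 scale. It moved to -0.94 without TauT-/- female 2, to -0.22 without TauT+/+ male 1 and to -0.16 by voom, none of them called.

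*Spp1* lies on the plus strand of chr5:104582165-104589235, beside *Ibsp* and *Dmp1* on the same chromosome. TauT+/+ male libraries 1 to 4 had 7240, 1372, 4140 and 4692 CPM, and TauT+/+ female libraries 1 to 3 had 7067, 2759 and 1276 CPM. TauT-/- male libraries 1 to 4 had 10117, 9197, 8920 and 16060 CPM, and TauT-/- female libraries 1 to 4 had 10621, 7735, 16613 and 3180 CPM. Of the 8 TauT-/- libraries 7 were above every TauT+/+ library, and TauT-/- female 4 was the exception. The means were 4078 ± 2457 and 10305 ± 4368 CPM (SD, n = 7 and 8 libraries). The log2 fold change was 1.35 (SE 0.44, 95% interval 0.42 to 2.29), with an edgeR p of 0.00764 and an adjusted p of 0.0953. DESeq2 gave 1.37 with an adjusted p of 0.0168 and voom gave 1.56 with an adjusted p of 0.0349. Over 15 libraries, whether *Spp1* passed the threshold therefore depended on the tool. DESeq2 and voom were not run on 13 libraries, so their fits hold both libraries of each near-identical pair. Under the male label the log2 fold change was 1.34 (SE 0.61) and under the female label 1.37 (SE 0.68). These estimates share the near-identical pairs and are not independent either. With 1 library kept of each near-identical pair, 6 of 7 TauT-/- libraries were above every TauT+/+ library and the log2 fold change was 1.53 or 1.69 (edgeR adjusted p = 0.109 and 0.113). *Spp1* took 0.131 to 1.65% of all counts of a library, and its mean level stood at the 99.97th percentile of the genes tested.

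**Figure D2:**
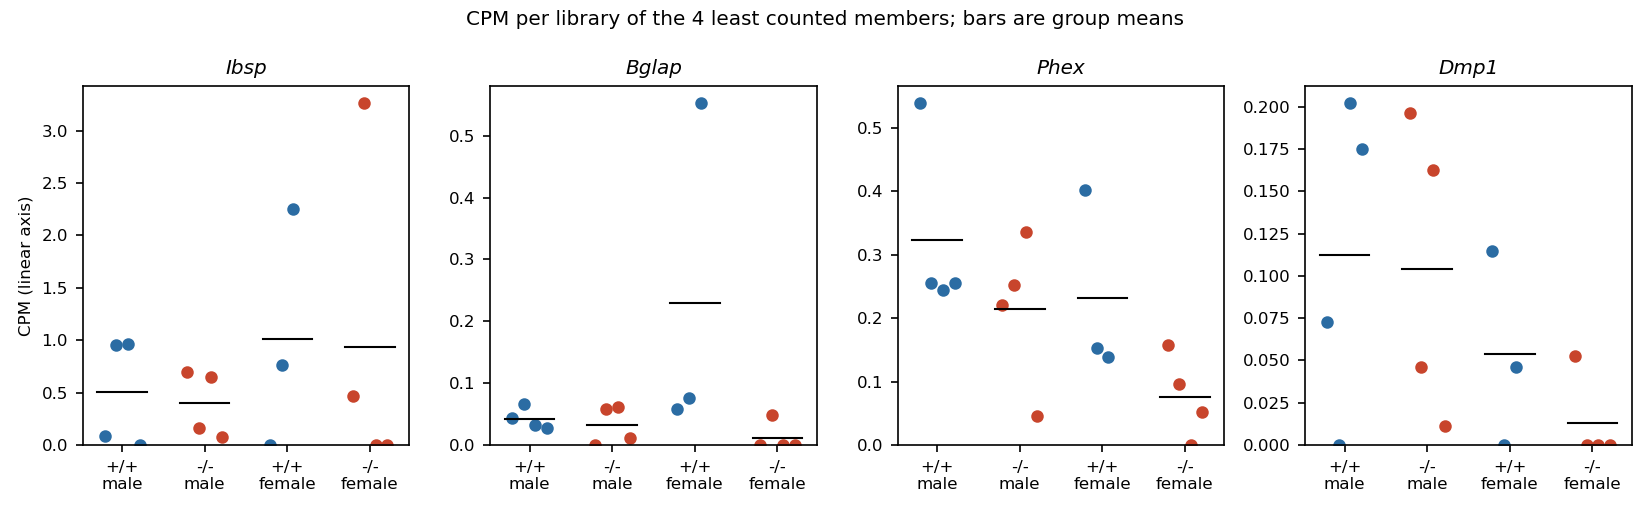
CPM (linear axis) of *Ibsp*, *Bglap*, *Phex* and *Dmp1* in each library, by genotype and sex label. Points are libraries, blue for TauT+/+ and red for TauT-/-, and bars are group means. No value of *Bglap*, *Phex* or *Dmp1* reaches 1 CPM, and the highest value of *Ibsp* is 3.26 CPM in TauT-/- female 2.

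The other genes were close to the limit of detection. *Ibsp*, on the plus strand of chr5:104447037-104459338, had 461 counts over all libraries and 0 counts in 4 of them, TauT+/+ male 4, TauT+/+ female 1 and TauT-/- female 3 and 4. Its highest levels were 3.26 CPM in TauT-/- female 2 and 2.26 CPM in TauT+/+ female 3. In the pair of nearly identical TauT+/+ libraries, male 1 had 0.087 CPM and female 1 was at 0. The means were 0.719 ± 0.808 and 0.666 ± 1.09 CPM (SD, n = 7 and 8 libraries). The log2 fold change was -0.24 (SE 1.09, 95% interval -2.56 to 2.09, edgeR adjusted p = 0.919), and its sign turned when any of 3 TauT+/+ libraries was left out. *Ibsp* had the largest relative spread among the 7 tested genes, a coefficient of variation of 1.54 at the 99.3rd percentile of all genes.

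*Bglap*, on the minus strand of chr3:88290808-88291771, had 41 counts in all 15 libraries together, 12 of them in TauT+/+ female 3 (0.553 CPM). It was at 0 in 4 libraries, all of them TauT-/-, and 3 of these were among the shallow female-labelled libraries. The means were 0.122 ± 0.191 and 0.0222 ± 0.0280 CPM (SD, n = 7 and 8 libraries). Without the filter on low counts its log2 fold change was -1.52 (SE 0.82, edgeR adjusted p = 0.399). The canonical transcripts of *Bglap* and its neighbour *Bglap2* share 98.6% of 440 aligned bases, and *Bglap* and *Bglap3* share 96.1%. Reads could therefore be split among these copies or left uncounted, and each count is uncertain. *Bglap2* had 114 counts and a log2 fold change of -0.031 (SE 0.75), and *Bglap3* had 3 counts. Few counts were thus assigned to the 3 copies in either genotype. The methods do not say how reads matching more than 1 gene were counted, so the amount of osteocalcin RNA stays undetermined.

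*Phex*, on the minus strand of chrX:155945071-156198308, had 197 counts in all. It ranged from 0.138 to 0.539 CPM in TauT+/+ and from 0 to 0.336 CPM in TauT-/- libraries, and 4 of 8 TauT-/- libraries were below every TauT+/+ library. The log2 fold change was -0.90 (SE 0.48, 95% interval -1.92 to 0.13, edgeR adjusted p = 0.274). *Dmp1*, on the plus strand of chr5:104345340-104361974, had 78 counts, was at 0 in 5 libraries and reached 0.202 CPM at most, in TauT+/+ male 3. Its means were 0.0873 ± 0.0804 and 0.0586 ± 0.0779 CPM (SD, n = 7 and 8 libraries), and a difference between genotypes was not detectable at this depth.

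Per kilobase of exon, the order of the levels in TauT+/+ MSCs was *Spp1* (1434 CPM per kb), *Alpl* (37.1), *Sp7* (7.21), *Runx2* (6.19), *Dlx5* (2.52), *Ibsp* (0.347), *Bglap* (0.198), *Phex* (0.0451) and *Dmp1* (0.0272). In TauT-/- MSCs the values in the same order were 3625, 28.5, 3.72, 4.61, 1.29, 0.321, 0.036, 0.0231 and 0.0183 CPM per kb. The order of the means differed only in *Sp7* and *Runx2*, which changed places. Neighbours in this order overlapped in their library values except *Spp1* with *Alpl* in both genotypes and *Runx2* with *Dlx5* in TauT+/+ MSCs. In their means the regulators and *Alpl* thus stood well above the late genes *Phex* and *Dmp1*, and *Spp1* far above these. The place of *Bglap* is that of the counts assigned to it only, as the amount of osteocalcin RNA stays undetermined. Single libraries could differ, as *Sp7* had 0.182 CPM in TauT-/- male 4 and *Phex* 0.336 CPM in TauT-/- male 3.

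**Figure D3:**
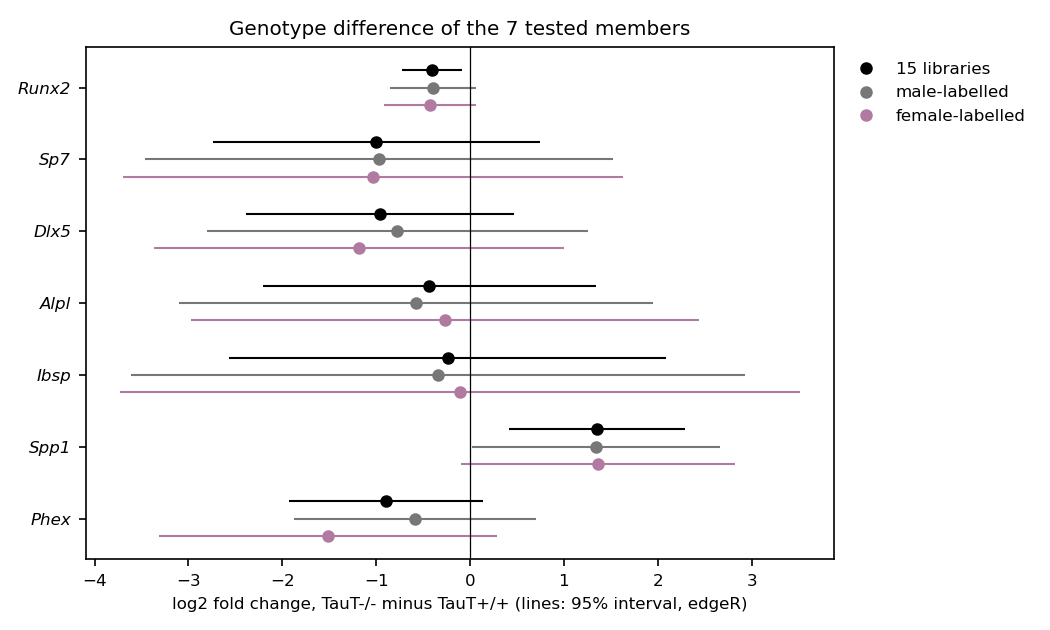
Log2 fold change of the 7 tested genes, TauT-/- minus TauT+/+, from edgeR. Points are estimates and lines 95% intervals, black over 15 libraries, grey for male-labelled and purple for female-labelled libraries. Over 15 libraries the intervals of *Runx2* (-0.73 to -0.091) and *Spp1* (0.42 to 2.29) do not reach 0 before adjustment over all genes.

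The sex labels gave fitted differences of the same sign for each of the 7 genes. The labels are not independent, as each holds 1 library of both near-identical pairs. Sex-linked genes also went against the label in some libraries, so the labels are not a clean split by sex. In the fit with 1 term per group, 0 of the 7 genes and 0% of all genes passed an edgeR adjusted p of 0.05 under either label, with *Spp1* under the male label the only one of the 7 genes at an unadjusted p under 0.05 (edgeR adjusted p = 0.573). Over all genes, 1483 in male-labelled and 2518 in female-labelled libraries had an unadjusted p under 0.05. The difference between the labels was called for 0% of genes, with 242 at an unadjusted p under 0.05. Its largest size among the 7 genes was -0.92 for *Phex* (SE 1.02), which the edgeR interval from -3.13 to 1.28 leaves undetermined.

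**Figure D4:**
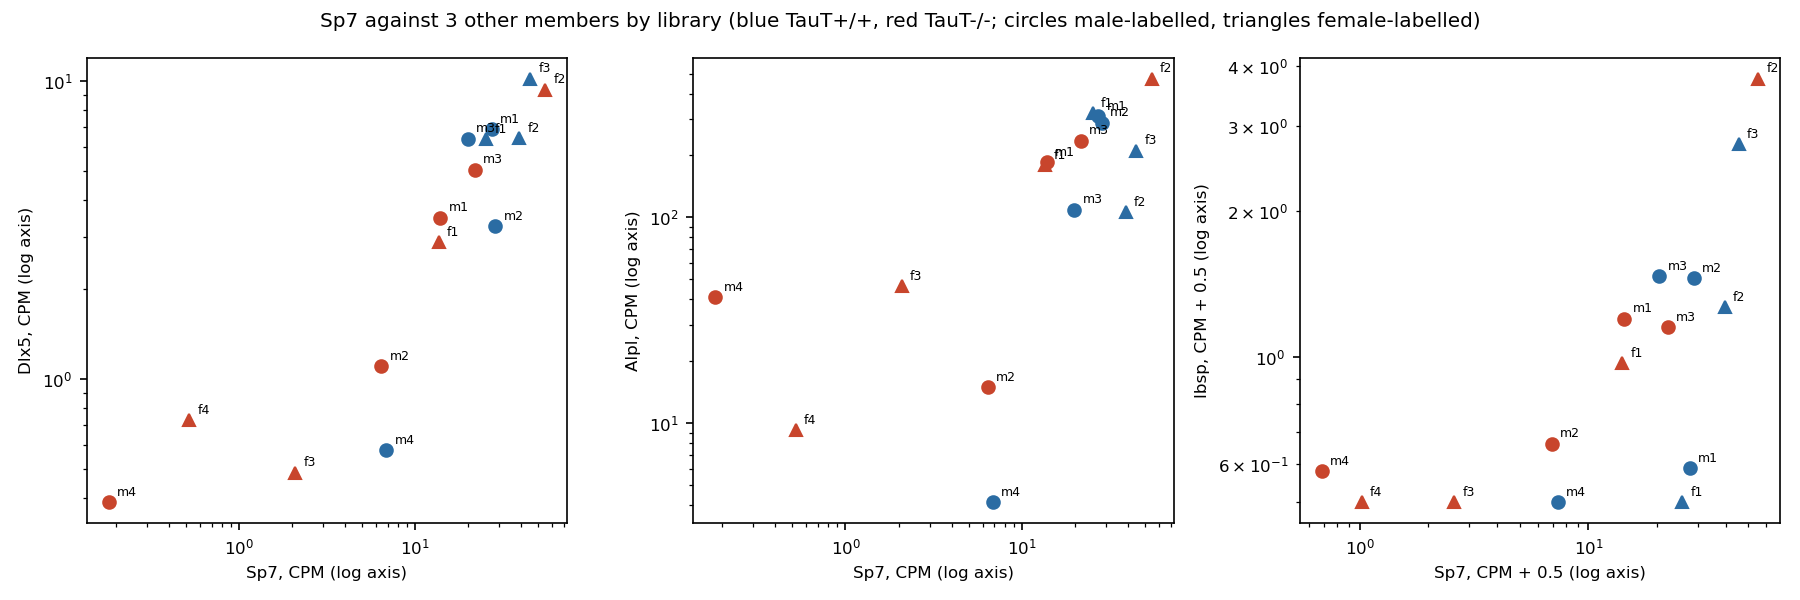
*Dlx5*, *Alpl* and *Ibsp* against *Sp7* by library, in CPM on log axes, with 0.5 CPM added in the panel of *Ibsp*. Blue is TauT+/+, red TauT-/-, circles male-labelled and triangles female-labelled libraries with their numbers. *Dlx5* rises with *Sp7* from TauT-/- male 4 at 0.182 CPM of *Sp7* to TauT-/- female 2 at 54.7 CPM.

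Some regulators and matrix genes were high and low in the same libraries. In all, 6 relations were computed on log2(CPM + 0.5) over 13 libraries, 1 of each near-identical pair being left out. Their p came from 100000 permutations and was adjusted over the 12 p-values. Within a sex label all possible orders were used instead. Each label holds a library of both near-identical pairs, so the labels are not independent. The permutations treat libraries as exchangeable, although same-numbered male-labelled libraries deviated together, so these p-values can be too small. *Dlx5* and *Sp7* were the closest, with Pearson's r = 0.903 (permutation p = 1e-05, the smallest these permutations can give, adjusted p = 0.00012) and Spearman's rho = 0.918 (permutation p = 5e-05, adjusted p = 0.0003). Without the 2 libraries farthest from the median of *Dlx5*, r was 0.867, and it was 0.842 in the male-labelled and 0.961 in the female-labelled libraries alone. *Sp7* and *Ibsp* had r = 0.738 (permutation p = 0.00456, adjusted p = 0.0109) and rho = 0.749 (permutation p = 0.00438, adjusted p = 0.0109), and r was 0.782 without the 2 farthest libraries. Within a label the relation of *Sp7* and *Ibsp* did not pass, at r = 0.566 (permutation p = 0.106) in male-labelled and 0.744 (permutation p = 0.0631) in female-labelled libraries.

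The other relations were weaker or rested on few counts. *Sp7* and *Bglap* had rho = 0.762 (permutation p = 0.00366, adjusted p = 0.0109) but r = 0.466 (permutation p = 0.12, adjusted p = 0.16), and *Bglap* had at most 12 counts in a library. *Dmp1* and *Phex* had r = 0.688 (permutation p = 0.00981, adjusted p = 0.0196) and rho = 0.577 (permutation p = 0.0432, adjusted p = 0.0741). With the other member of each near-identical pair kept, their r was 0.543 (permutation p = 0.0564), and in the male-labelled libraries alone 0.218. *Runx2* and *Alpl* had r = 0.411 (permutation p = 0.163, adjusted p = 0.196) and rho = 0.335 (permutation p = 0.264, adjusted p = 0.264). Among the other pairs, as a description, *Alpl* had r = 0.811 with *Dlx5* and 0.703 with *Sp7*, while *Spp1* had r = -0.506 with *Runx2*, -0.462 with *Sp7* and -0.137 with *Alpl*. These points share the depth of their library and the genotype groups.

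Over the same 13 libraries, the genes most like *Sp7* among 13202 with a mean of at least 1 CPM were *Psrc1* (r = 0.940), *Pdk4* (0.937) and *Nog* (0.934). Those most like *Dlx5* were *Id1* (0.930), *Pcdhb9* (0.901) and *Gzmc* (0.898). Those most like *Runx2* were *Zfp799* (0.937), *Zfp275* (0.920) and *Trp53bp1* (0.916), those most like *Alpl* were *D16Ertd472e* (0.861), *Gm10638* (0.860) and *Zfp422* (0.858), and those most like *Spp1* were *I830077J02Rik* (0.946), *Lsp1* (0.938) and *Rasal3* (0.934). When the other member of each pair was kept, 3 of the 3 genes stayed among the top 3 for *Spp1*, 2 for *Sp7*, 2 for *Dlx5*, 1 for *Alpl* and 0 for *Runx2*. This set differs from the first only by near-identical libraries, so staying in the top 3 is weak support. Each r was picked as one of the largest among 13202 genes, so its size partly reflects that selection.

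The other genes of the lineage gave a similar picture. A list of 61 further genes, from regulators to osteocyte genes, had 56 genes that passed the filter. By edgeR 0 were called lower and 0 higher, while 10 were lower and 4 higher at an unadjusted p under 0.05, beside 13% and 10.6% of all genes. Their signs were lower for 36 and higher for 20 of them, where 51.7% of all genes had a lower sign, and their median was -0.25 on the log2 scale beside -0.015 over all genes. DESeq2 called 5 of them lower and 3 higher, and voom called 3 lower and 3 higher, beside the shares of all genes given above for these tools. Both tools called the regulator *Msx1*, the small leucine-rich proteoglycan *Bgn* and *Tmem119* lower and *Pdpn*, *Cbfb* and *Phospho1* higher. These were named after their values were seen.

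All 20 further regulators were tested, 13 with a lower and 7 with a higher sign (median -0.23). The most abundant were the AP-1 factors *Junb*, at 456 ± 212 and 291 ± 134 CPM (SD, n = 7 and 8 libraries, log2 fold change -0.67, edgeR adjusted p = 0.249), and *Fosl2*, at 279 ± 46.9 and 324 ± 55.4 CPM (0.22, edgeR adjusted p = 0.310). Closest to the threshold was *Msx1*, a homeobox factor, at 8.40 ± 3.39 and 3.87 ± 1.30 CPM (SD, n = 7 and 8 libraries, log2 fold change -1.11, edgeR adjusted p = 0.0594). *Cbfb*, the partner that binds DNA with RUNX factors, had 69.3 ± 14.9 and 92.7 ± 10.3 CPM (SD, n = 7 and 8 libraries), a log2 difference of 0.41 (edgeR adjusted p = 0.0917) of opposite sign to that of *Runx2*.

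Of the 18 collagen and early matrix genes, 15 had a lower sign (median -0.63). *Col1a1*, which encodes the main chain of bone collagen, had 12883 ± 3087 and 8043 ± 6649 CPM (SD, n = 7 and 8 libraries), and it differed by -0.68 on the log2 scale (SE 0.41, edgeR adjusted p = 0.328). *Bgn* had 7646 ± 2076 and 4394 ± 1499 CPM (SD, n = 7 and 8 libraries), which is -0.80 on the log2 scale (SE 0.23, edgeR adjusted p = 0.0792). Both differences had the opposite sign to that of *Spp1*. The 12 stromal markers, led by *Cxcl12* and *Pdgfrb*, had a median log2 difference of -0.57 with 0 called by edgeR. Of these 12, 9 had a lower and 3 a higher sign, 4 were lower and 1 higher at an unadjusted p under 0.05, DESeq2 called 2 lower and 0 higher, and voom 3 lower and 1 higher. Among them *Cd44*, a hyaluronan receptor found on many cells, had 183 ± 121 and 306 ± 88.2 CPM (SD, n = 7 and 8 libraries, log2 difference 0.77, edgeR adjusted p = 0.190), and *Pdgfra* had 259 ± 163 and 96.3 ± 66.8 CPM (SD, n = 7 and 8 libraries, log2 difference -1.45, edgeR adjusted p = 0.108). The summed level of the 12 was 3105 to 25968 CPM in TauT+/+ and 1144 to 15964 CPM in TauT-/- libraries, and its part in the matrix values was not tested. In the means most of this sum was *Cxcl12*, at 12120 ± 10454 and 4437 ± 6044 CPM (SD, n = 7 and 8 libraries, edgeR adjusted p = 0.407). The next, *Pdgfrb*, averaged 625 and 416 CPM.

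The 15 tested genes of mineralization were divided, 7 lower and 8 higher (median 0.14). *Mgp*, matrix Gla protein, an inhibitor of mineral formation, had 162 ± 141 and 256 ± 267 CPM (SD, n = 7 and 8 libraries, edgeR adjusted p = 0.563), and *Slc20a1*, a phosphate transporter, had 153 ± 57.0 and 149 ± 37.0 CPM (SD, n = 7 and 8 libraries, edgeR adjusted p = 0.871). *Phospho1*, a phosphatase of matrix vesicles, had 0.328 ± 0.210 and 1.29 ± 1.48 CPM (SD, n = 7 and 8 libraries, log2 fold change 1.63, edgeR adjusted p = 0.0944), and *Tmem119* had 194 ± 67.5 and 91.5 ± 55.8 CPM (SD, n = 7 and 8 libraries, -1.09, edgeR adjusted p = 0.0863). Of the 7 osteocyte genes 3 were tested. *Sost* and *Mepe*, which encode secreted proteins of mature osteocytes, had 0 counts in every library. The most abundant, *Pdpn*, which is not restricted to osteocytes, had 66.0 ± 42.7 and 146 ± 47.6 CPM (SD, n = 7 and 8 libraries, log2 fold change 1.20, edgeR adjusted p = 0.0965), and *Irx5* had 10.5 ± 5.43 and 11.3 ± 8.14 CPM (SD, n = 7 and 8 libraries, edgeR adjusted p = 0.891). *Fgf23*, the hormone held down by *Dmp1* and *Phex*, had 0.669 ± 0.783 and 0.0928 ± 0.119 CPM (SD, n = 7 and 8 libraries, log2 fold change -2.80, edgeR adjusted p = 0.125).

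**Figure D5:**
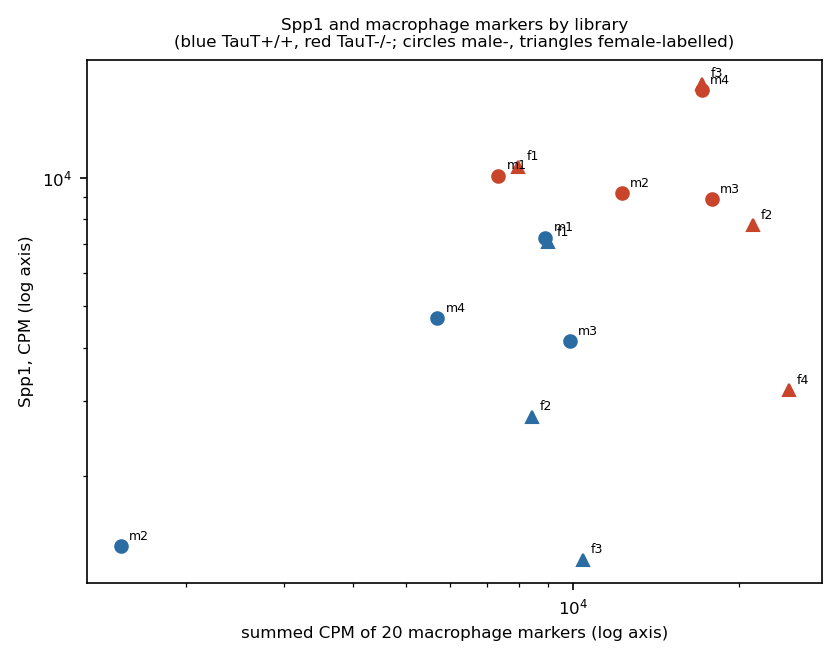
*Spp1* in CPM against the summed CPM of 20 macrophage markers by library, both on log axes. Blue is TauT+/+, red TauT-/-, circles male-labelled and triangles female-labelled libraries with their numbers. TauT-/- female 4, which has the highest marker sum, 24552 CPM, has the lowest *Spp1* of the red points, 3180 CPM.

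Because macrophages and osteoclasts also make osteopontin, their markers are given beside *Spp1*. All 20 macrophage markers were tested and 19 had a higher sign (median log2 fold change 0.94). By edgeR 2 were called higher (10 by DESeq2, 9 by voom), *Cd68*, a lysosomal glycoprotein of macrophages (1.46, SE 0.33, adjusted p = 0.0445), and *Ctss*, a lysosomal cysteine protease (2.07, SE 0.47, adjusted p = 0.0467), and 0 lower. The summed level of the 20 was 1521 to 10420 CPM (median 8914) in TauT+/+ and 7336 to 24552 CPM (median 17118) in TauT-/- libraries. None of the 20 was at 0 throughout. The sum was led by *Lyz2*, at 3900 ± 1717 and 7700 ± 3267 CPM (SD, n = 7 and 8 libraries), so it weighs this gene most. *Ptprc* had 123 ± 52.5 and 234 ± 87.6 CPM (SD, n = 7 and 8 libraries, log2 fold change 0.91, edgeR adjusted p = 0.129). The part of these cells in the *Spp1* difference was not tested.

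Library by library, the mean log2 level of the macrophage markers and *Spp1* had r = 0.536 (permutation p = 0.0551, adjusted p = 0.0827) and rho = 0.341 (permutation p = 0.255, adjusted p = 0.264) over the 13 libraries, and r = 0.472 without the 2 farthest. In the male-labelled libraries alone r was 0.915 (permutation p = 0.00459) but rho was 0.690 (permutation p = 0.0694). In the female-labelled ones r was 0.162 (permutation p = 0.726) and rho -0.071 (permutation p = 0.906). The lowest *Spp1* of all, 1276 CPM, was in TauT+/+ female 3, whose marker sum of 10420 CPM was the highest of the TauT+/+ libraries, whereas TauT+/+ male 2 was low in both, with 1372 CPM of *Spp1* and a marker sum of 1521 CPM. The TauT-/- libraries numbered 1 had *Spp1* above every TauT+/+ library while their marker sums of 7336 and 7963 CPM lay within the TauT+/+ range. The other TauT-/- libraries had marker sums of 12248 to 24552 CPM, above every TauT+/+ library. Except for female 4, their *Spp1* was above every TauT+/+ library too.

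Markers of other cells that such cultures can hold were compared in the same way, and edgeR called none of them. Of 10 osteoclast markers 9 were tested and 0 called by edgeR, DESeq2 or voom, with 0 at an unadjusted p under 0.05 and a median of 0.24, and their sum was 214 to 625 CPM in TauT+/+ and 126 to 957 CPM in TauT-/- libraries. *Acp5*, the osteoclast acid phosphatase, had 14.6 ± 22.5 and 32.6 ± 64.9 CPM (SD, n = 7 and 8 libraries, log2 fold change 0.94, edgeR adjusted p = 0.680). The 8 adipocyte markers all had a lower sign (median -1.36), 5 of them with an unadjusted p under 0.05, and 5 were called lower by DESeq2 and 2 by voom. In this list *Adipoq*, the adipocyte hormone adiponectin, had 19.5 ± 39.6 and 0.810 ± 0.852 CPM (SD, n = 7 and 8 libraries, -4.22, edgeR adjusted p = 0.0734). Of the chondrocyte markers 5 of 8 were tested (median -0.32), 1 with an unadjusted p under 0.05, and none was called by DESeq2 or voom. In this list *Acan*, the cartilage proteoglycan aggrecan, was at most 0.862 CPM in TauT+/+ and 6.84 CPM in TauT-/- libraries and did not pass the filter. *Col2a1* led the list, at 695 ± 1132 and 756 ± 1067 CPM (SD, n = 7 and 8 libraries, log2 fold change 0.18, edgeR adjusted p = 0.935). The summed level of these markers was 172 to 3205 CPM in TauT+/+ and 57.4 to 3232 CPM in TauT-/- libraries, highest in male 3 of each genotype. Endothelial markers, 5 of 8 tested (median 0.18, 1 at an unadjusted p under 0.05, 1 called higher by DESeq2 and 1 by voom), were led by *Kdr*, a receptor for vascular endothelial growth factor, at 2.90 ± 1.94 and 16.1 ± 11.4 CPM (SD, n = 7 and 8 libraries, log2 fold change 2.14, edgeR adjusted p = 0.0561). Of the 5, 4 had a higher sign, and the summed level of the 8 was 1.61 to 12.1 CPM in TauT+/+ and 8.48 to 42.7 CPM in TauT-/- libraries. Apart from *Kdr*, no marker of this list averaged more than 1.34 CPM in either genotype, so in the TauT-/- means most of the sum is *Kdr*. This does not hold in TauT+/+ libraries, where *Kdr* reached 5.21 CPM and *Pecam1* 6.03 CPM. *Pecam1*, which encodes CD31, had 1.31 ± 2.16 and 1.16 ± 2.24 CPM (SD, n = 7 and 8 libraries). None of the 6 erythroid markers passed the filter, and their summed level was at most 0.115 CPM.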

How the data were processed

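MSCs were sequenced in 15 libraries after oligo-dT priming, full-length cDNA synthesis and PCR amplification (SMART-Seq mRNA LP). According to the methods and the submitters' processing notes, the authors trimmed reads with fastp 0.23.1, aligned them with STAR 2.7.9a to the build GRCm39 and made strand-specific counts on GENCODE M31 genes with featureCounts of Subread 2.0.1. The deposited values are raw counts per gene, which are not normalized, and each of the 15 columns matched 1 sample. Reads carry no molecular identifiers, so the limit given for a count of 0 covers counting error only.

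Genotypes were compared with edgeR 4.0.16 under R 4.3.3 (TMM, filterByExpr, quasi-likelihood test, labelled sex and genotype in the model, 1 term per group for the contrasts within a sex label) and adjusted by the Benjamini-Hochberg method, with a threshold of 0.05. DESeq2 1.42.0 and voom of limma 3.58.1 were alternatives, besides other normalizations and filters, no sex term, a replicate block (over all libraries and, added after the data were seen, in male-labelled libraries alone), each sex label alone, 13 or 12 libraries, another pseudocount and leaving out each library. The edgeR, DESeq2 and voom steps were tested on simulated counts. Python 3.11.15 and SciPy 1.17.1 served for correlations. Positions and promoters come from GENCODE M39 on GRCm39.

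The 9 genes and all lists were chosen with earlier results of these data known. By rule, the text names the 9 genes, *Slc6a6*, the *Bglap* copies, the 2 most abundant genes of each lineage list and any called by edgeR (up to 5, otherwise the 3 largest rises and the 3 largest falls), the 3 genes most like each of those among the 9 that averaged 1 CPM or more, and the defining gene and any called gene of each marker list. Genes outside the rule (*Msx1*, *Cbfb*, *Bgn*, *Tmem119*, *Phospho1*, *Cd44*, *Fgf23*, *Sost*, *Mepe* and markers named as leading their list) were chosen after their values were seen. Some genes that the rule names are not reported here.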

Additional observations from a re-analysis of the deposited data

Results flagged for a closer look

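Each of the 9 genes was examined in the 3 groups of 4 libraries, 27 groups in all, for a highest or lowest library whose gap to its nearest neighbour took more than 0.829 of the range of its group. Were the values normally distributed, chance alone would give about 1.35 such groups, and 5 were found. Genes of few counts are not so distributed, so the 5 cannot be read as an excess over chance. For *Spp1* the gap of TauT-/- male 4, at 16060 CPM against 8920 to 10117 CPM in the other male-labelled TauT-/- libraries, took 0.832 of the range. The other 4 are among genes of few counts. *Ibsp* stood high in TauT-/- female 2 (0.856), at 3.26 CPM against 0.471 CPM or less, in the library that also held the highest *Sp7* and *Alpl*. *Phex* stood high in TauT+/+ male 1 (0.963), at 0.539 CPM, and its near-identical partner TauT+/+ female 1 had the next highest value, 0.402 CPM. *Bglap* in TauT-/- female 2 (1) and *Dmp1* in TauT-/- female 1 (1) were the single libraries of their group with any count. Each rests on 1 count with the rest of the group at 0, where the rule always gives 1.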

How the results depend on the processing

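The log2 fold changes of *Runx2*, *Sp7*, *Dlx5*, *Spp1* and *Phex* kept their sign in all 26 to 29 alternatives that gave a value, from -0.52 to -0.35 for *Runx2* (adjusted p 0.0558 to 0.633) and from 1.18 to 1.72 for *Spp1* (adjusted p 0.0168 to 0.631). The value of *Alpl* ranged from -0.94 to 0.048 and was reversed only in the male-labelled libraries with the replicate block (0.048). For *Ibsp* the sign was reversed by voom (0.70) and by the replicate block (0.46 over all libraries, 0.38 in the male-labelled ones), and leaving out 1 library gave -1.18 to 0.23, with a positive value without TauT+/+ male 2 (0.023), TauT+/+ male 3 (0.035) or TauT+/+ female 3 (0.23). The cause was not tested.

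Of the 9 genes, 1 was called higher by DESeq2 and 1 by voom, *Spp1* in both. In the list of 61 lineage genes, calls of lower genes were 5 by DESeq2, 3 by voom, 1 with at least 10 counts in every library, 1 without a sex term, 1 with the replicate block (*Ank*) and 0 to 3 on leaving out 1 library. Calls of higher genes were 3 by DESeq2, 3 by voom and 0 to 2 on leaving out 1 library. Without TauT+/+ male 3 there were 3 lower (*Msx1*, *Tmem119*, *Bgn*) and 2 higher (*Pdpn*, *Cbfb*), and without TauT-/- male 2 there was 1 lower (*Tmem119*). Over all genes, leaving out 1 library gave 4 to 779 lower and 8 to 476 higher calls beside 129 and 94, and the 2 fits with 13 libraries gave 0 lower and 2 or 7 higher.

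Pairing by replicate number requires that the deviations of every same-numbered pair correlate above 0.1. All 4 male-labelled pairs did (0.187 to 0.622) and 1 of 3 female-labelled pairs did (-0.040 to 0.277), so the numbers met this under the male label and not over all libraries. The block over all libraries gave 177 lower and 82 higher genes. In the male-labelled libraries with the block none of the 7 tested genes passed an edgeR adjusted p of 0.05, and *Spp1* was 1.54 (adjusted p = 0.513) and *Sp7* -1.83. *Spp1* was higher in the TauT-/- library of 7 of 7 same-numbered pairs, and the other genes in 1 (*Dlx5*, *Bglap* and *Phex*) to 4 (*Ibsp*) of 7. The pairs male 1 and female 1 are the near-identical libraries, so the 7 are not all independent. The share over all genes was not computed. Pearson's r that crossed the threshold were those of *Sp7* with *Ibsp* in male-labelled (0.566) and female-labelled (0.744) libraries, of *Dmp1* with *Phex* with the other 13 libraries (0.543) and in male-labelled ones (0.218), and of *Spp1* with macrophage markers in male-labelled ones (0.915). Fits within a sex label hold 7 or 8 libraries. For *Ibsp*, *Bglap*, *Phex* and *Dmp1* the depth of the female-labelled libraries limits what can be seen.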
